A study of Mus musculus with 18 samples.

Results

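The 6 arrays described here are the embryoid bodies in which Msgn1 had been switched on for 12 h (3 arrays) or for 24 h (3 arrays), out of 18 arrays in the series. They were chosen by title, as the arrays of doxycycline-treated cultures at those times, and no measured value entered the choice. All cultures came from 1 A2lox mouse embryonic stem cell line of strain 129P2 that carries Flag-tagged Msgn1 under doxycycline control. The induced cultures received doxycycline at 1 µg/ml on day 2 of differentiation, and the uninduced cultures of the same line, which serve here as the reference course, received none and were collected at the same times. The stem cells had been kept on mitomycin-treated mouse embryonic fibroblasts before differentiation, and no group received doxycycline without the cassette, so an effect of the drug and an effect of Msgn1 cannot be told apart by design. The comparison asks what changed between the 2 times within induced cultures. Each change is the 24 h mean minus the 12 h mean of log2(signal + 32), and ± marks its standard error (SE) from the fit, and a gene was called at a Benjamini-Hochberg adjusted limma p under 0.05.

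Msgn1 (mesogenin 1), of the basic helix-loop-helix class, is a transcription factor found in presomitic mesoderm. This tissue is laid down by cells that leave the primitive streak, where Wnt, Nodal and Fgf signals act and cells pass from an epithelial to a mesenchymal state, and it is later cut into somites under control of the Notch pathway and of opposing Fgf and retinoic acid signals. Embryoid bodies are aggregates of stem cells that run through some of these steps in suspension, while the genes of the naive stem cell state are shut down.

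Array medians over all probe sets lay between 18.8 and 22.1 on the linear scale, and arrays of 1 group correlated at 0.9903 to 0.9943. The 3' to 5' ratio of the Actb control probe sets, a measure of RNA integrity, was 1.843 to 2.164 at 12 h and 1.535 to 2.095 at 24 h in induced arrays (exact permutation test, 2-sided p = 0.4, where 0.1 is the smallest possible). The 24 h arrays numbered 3, induced and uninduced, stood apart from the other 24 h arrays: their deviations from their group means correlated at 0.44 with each other and at -0.2 to -0.32 with those of the other numbers. The highest ratio of the induced 24 h group, 2.095, was that of the array numbered 3, and its part in the results was not tested. The counts over all genes are given with and without them, and list counts that changed without them are given at the end. The labels call the arrays of a group biological replicates, and the p-values measure the spread between these samples alone.

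The labels were checked first. Msgn1 signal was 70.4, 64.7 and 76.8 in the induced arrays at 12 h and 56.7, 52.9 and 67.3 at 24 h, and between 5.22 and 25.2 in all uninduced arrays of those times. Every induced array lay above every uninduced array, while the 12 h and 24 h induced arrays overlapped (log2 change -0.18 ± 0.116, adjusted p = 0.3453). The files do not say whether the Msgn1 probe set reads the cassette's transcript. Hprt, the X-linked gene beside which A2lox cassettes are inserted, had signals of 975, 822 and 901 at 12 h and of 1372, 1343 and 1750 at 24 h (log2 change 0.70 ± 0.123, adjusted p = 0.0006232), against 203 to 321 in the uninduced arrays. All 6 markers of embryonic stem cells and epiblast had a mean above the filter signal of 13.3 in an induced group, and their summed signal was 19871 to 20494 at 12 h and 17538 to 19130 at 24 h. All 12 fibroblast markers were also above it, with sums of 1772.5 to 2067.2 and of 1830.7 to 2038.8, which overlap. Of 8 endoderm markers Ttr, Afp, Apoa1 and Cubn were below that signal in both induced groups, and the sum went from between 137.67 and 174.25 to between 247.93 and 325.83 with calls for Gata4 and Gata6. Among 6 trophoblast markers Elf5 and Gata3 were below it in both induced groups, and none of those tested was called. Of 3 blood markers on the array only 1 was above it.

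Of 14273 genes tested, 1986 (13.9%) changed between 12 h and 24 h of induction: 1222 (8.56%) rose and 764 (5.35%) fell. Most changes were small, and 31 of the genes that rose and 9 of those that fell changed at least 2-fold. Without both 24 h arrays numbered 3 the counts were 1512 and 1043, which include 1057 and 667 of the genes called with all arrays. Without the induced 24 h replicate 2 they were 688 and 437, and without the induced 12 h replicate 2 the genes that fell were 494. In uninduced cultures 574 genes (4.02%) changed over the same hours, of which 314 (2.2%) rose and 260 (1.82%) fell. The induced and uninduced courses share no array. The 3 arrays at 24 h lay all above the 3 at 12 h of induction for 2625 genes (18.4%) and all below them for 1896 (13.3%). Of the genes called higher in the induced course 17.3% were also called higher in the uninduced course, which is 67.2% of the uninduced calls; for lower calls the shares were 24% and 70.4%. Across all genes the changes of both courses correlated at 0.581, a description in which genes are not independent replicates. The genes that rose in induced cultures had a median change of 0.43 there and 0.20 in uninduced cultures, and the genes that fell had medians of -0.39 and -0.23. They were chosen by their calls in the induced course, which enlarges the induced medians. These medians therefore do not show that the courses differ. These measurements are of bulk RNA, in which fewer cells of a type and less RNA per cell cannot be told apart.

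**Figure D1:**
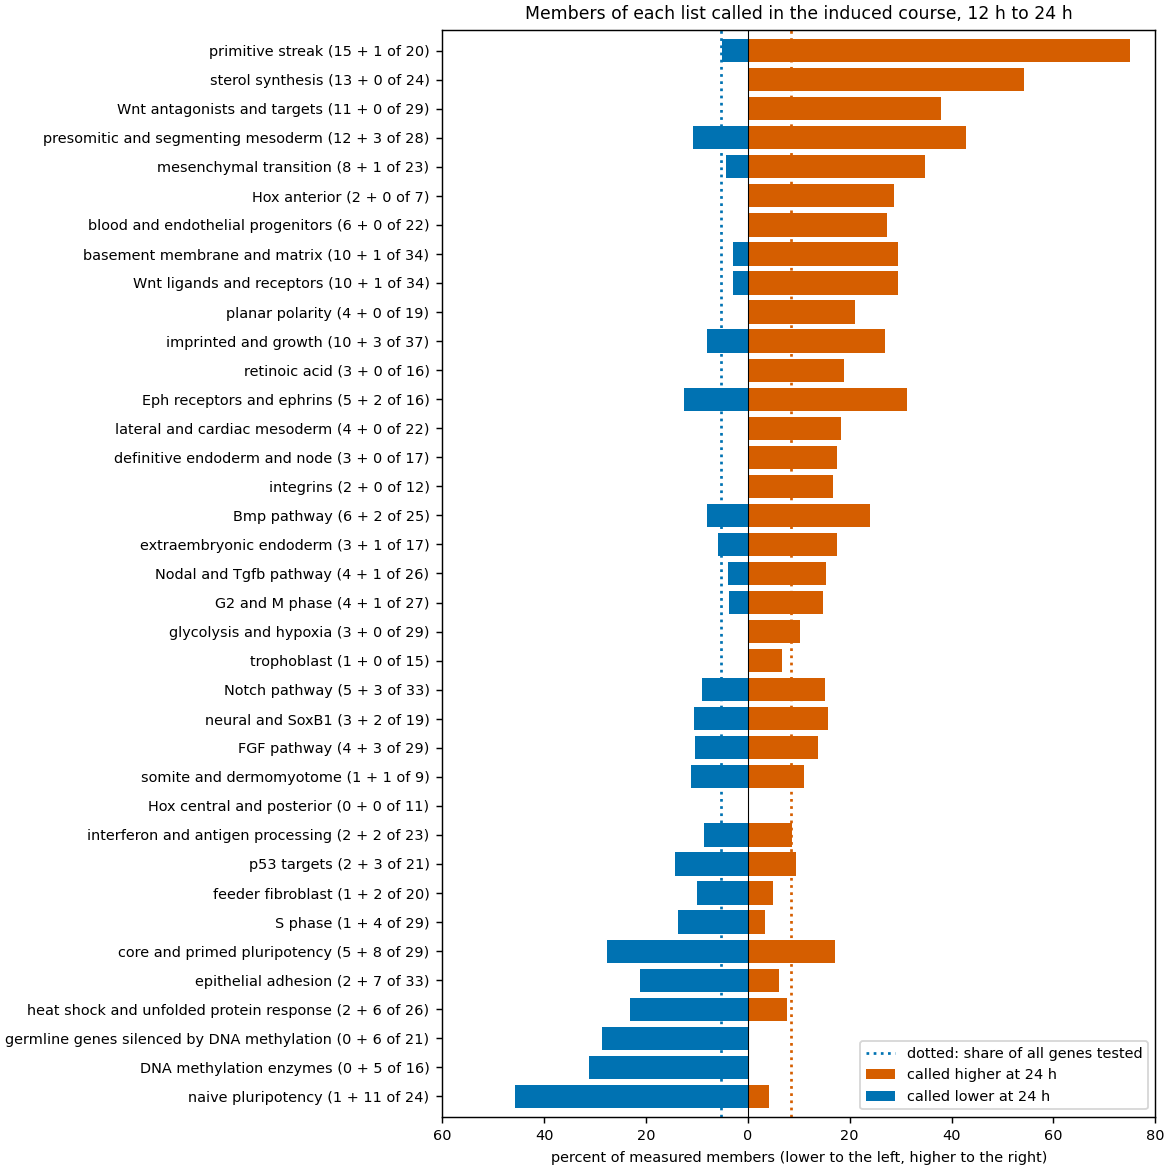
Percent of the measured members of each gene list called higher (right, orange) or lower (left, blue) at 24 h than at 12 h of induction, with counts beside each name; dotted lines mark the shares of all genes tested, 8.56% and 5.35%. The primitive streak list reaches furthest to the right (15 of 20) and the naive pluripotency list furthest to the left (11 of 24). The lists were chosen with earlier results of these data known.

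The largest rises and falls were picked among called genes whose 24 h arrays all lay beyond the 12 h arrays. That separation was thus fixed by the choice. The largest rise was that of Aplnr, the apelin receptor, a G protein-coupled receptor of early mesoderm. Its signal was 75.7, 82.9 and 102 at 12 h and 475, 666 and 869 at 24 h, a 5.77-fold change (log2 2.53 ± 0.193, adjusted p = 8.441e-08). Uninduced arrays stayed between 47.2 and 105 at both times, so the 3 induced arrays at 24 h stood alone among the arrays of these times. Igf2, the imprinted fetal growth factor, went from 88, 83.1 and 76.5 to 368, 465 and 498 (4.13-fold, log2 2.05 ± 0.141, adjusted p = 2.421e-08). Only 1 of its 2 probe sets was called. Cyp26a1, the enzyme that breaks down retinoic acid, went from 120, 75.3 and 82.6 to 334, 360 and 470 (3.38-fold, log2 1.76 ± 0.157, adjusted p = 3.901e-07). Neither Igf2 nor Cyp26a1 had a 24 h value near its 12 h values. At 48 h the uninduced means of Aplnr (1690.3) and Cyp26a1 (1021.2) were above the induced 24 h means (669.96 and 388.2). That of Igf2 (247.33) was below its induced 24 h mean (443.8).

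Eomes and Mixl1, transcription factors of the primitive streak, followed. Eomes signal was 408, 442 and 370 at 12 h and 1241, 1522 and 1595 at 24 h (log2 1.75 ± 0.164, adjusted p = 7.375e-07). Mixl1 signal was 83.1, 63 and 64.2 at 12 h and 200, 244 and 342 at 24 h (2.83-fold, SE 0.188 on the log2 scale, adjusted p = 1.816e-05). In both genes the 24 h array numbered 3 was the highest, and the groups were well separated without it. Fst, the activin-binding protein follistatin, rose from 274, 315 and 294 to 787, 983 and 1147 (log2 1.61 ± 0.158), and it also rose in uninduced cultures (log2 1.05, adjusted p = 0.0008972). The other large rises were Gfra2 (log2 1.45), a co-receptor for neurturin whose probe set can match other transcripts, Sp5 (1.42), a zinc-finger Wnt target, and Fli1 (1.38), an Ets factor of blood and endothelium. Greb1l (1.38), the Wnt target receptor Tnfrsf19 (1.38), the kinase Nuak1 (1.33), the Igf-binding protein Igfbp4 (1.24), the Pdgf receptor Pdgfra (1.22) and the streak ligand Fgf8 (1.18) completed the 15 largest. Besides Fst, the uninduced course was called higher for Eomes (log2 0.81, adjusted p = 0.006822), Cyp26a1 (0.58, adjusted p = 0.03948) and Tnfrsf19 (0.69, adjusted p = 0.002476). It was also called higher for Igfbp4 (0.46, adjusted p = 0.02422) and Fgf8 (0.76, adjusted p = 0.00731), and not for the others of the 15. Some genes had kept probe sets without a call: Gfra2 2 of 4, Greb1l 1 of 2, Tnfrsf19 2 of 3, Igfbp4 2 of 6 and Pdgfra 1 of 3.

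**Figure D2:**
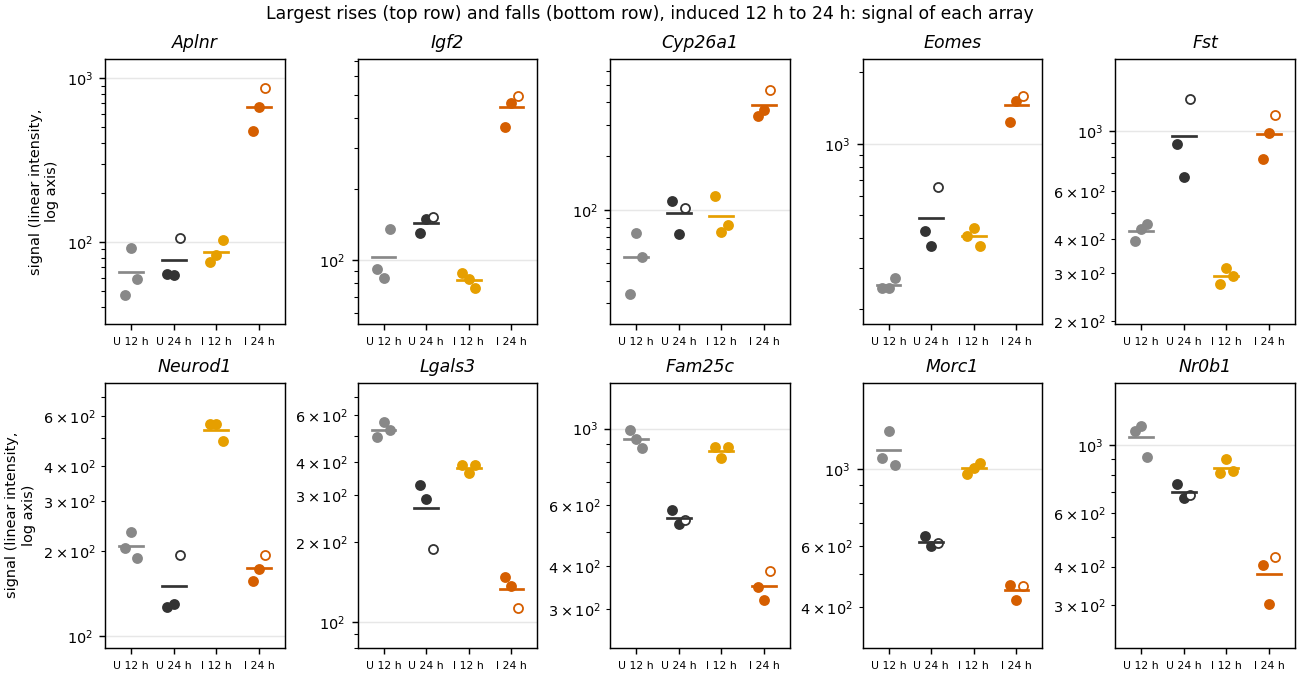
Linear signal on a log axis for each array of the 5 genes with the largest rises (top row) and falls (bottom row); U is uninduced, I is induced, bars are group means, and open circles are the 24 h arrays numbered 3. All induced 24 h arrays lie beyond the induced 12 h arrays in each of the 10 genes, which was a condition of their choice.

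The promoters of 3 genes whose rise differed between induced and uninduced cultures are shown because their letters can be set beside the factors named above. They were chosen after their values were seen. Each is the run of 250 bases before the gene's start on the plus strand, from RefSeq (GRCm38.p6), 5′ to 3′. In Nrarp (chr2:25180508-25180757) and Pdgfra (chr5:75152001-75152250) capitals mark the E-box CANNTG, the motif class of basic helix-loop-helix factors, and in Cyp26a1 (chr19:37697558-37697807) they mark 2 retinoic acid receptor half-sites 5 bases apart.
Nrarp: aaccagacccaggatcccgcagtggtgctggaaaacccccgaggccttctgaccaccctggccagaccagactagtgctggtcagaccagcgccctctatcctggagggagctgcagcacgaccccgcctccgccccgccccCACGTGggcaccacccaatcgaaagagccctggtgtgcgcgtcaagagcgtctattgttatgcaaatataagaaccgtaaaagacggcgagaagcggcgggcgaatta
Cyp26a1: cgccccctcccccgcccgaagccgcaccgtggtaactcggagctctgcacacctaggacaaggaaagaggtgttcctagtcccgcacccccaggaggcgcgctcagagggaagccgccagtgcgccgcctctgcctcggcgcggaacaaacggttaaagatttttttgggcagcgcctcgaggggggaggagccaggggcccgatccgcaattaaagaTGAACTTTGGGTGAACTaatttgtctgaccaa
Pdgfra: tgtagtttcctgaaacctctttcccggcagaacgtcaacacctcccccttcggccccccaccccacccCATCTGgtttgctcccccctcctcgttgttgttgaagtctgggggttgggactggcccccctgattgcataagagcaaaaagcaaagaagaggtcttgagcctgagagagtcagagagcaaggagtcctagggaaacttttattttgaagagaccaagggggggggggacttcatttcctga
The half-site pair was searched on both strands as AGTTCA, 5 bases of any kind and AGTTCA again, and lies on the minus strand in Cyp26a1, starting 32 bases before the gene's start (position -32). It was found in 7 of 32851 promoter windows (0.0213%). Only these exact letters were searched, so the share leaves out other forms of the half-site and is not a test for Cyp26a1. An E-box was found in 59.2% of the 14611 windows of tested genes, in 55.2% of the 1338 windows of genes called higher and in 56.2% of the 816 windows of genes called lower. Of the 15 largest rises 8 genes had windows, and 6 of these 12 windows (50.0%) held an E-box. The Cyp26a1 window held none. A match of letters is a description of the sequence and not a measured site.

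The largest fall was that of Neurod1, a basic helix-loop-helix factor of neuronal differentiation. Its signal was 562, 561 and 488 at 12 h and 156, 173 and 193 at 24 h (log2 -1.47 ± 0.129, adjusted p = 3.901e-07). At 24 h the induced arrays overlapped the uninduced ones of 127, 129 and 193, whereas at 12 h they lay above the uninduced 204, 233 and 189. Lgals3, which encodes the lectin galectin-3, went from 388, 363 and 389 to 148, 137 and 113 (log2 -1.33 ± 0.15, adjusted p = 6.467e-06). It also fell in uninduced cultures (log2 -0.93, adjusted p = 0.001763). Nr0b1, a nuclear receptor of the naive state, went from 812, 899 and 822 to 404, 301 and 429 (log2 -1.11 ± 0.13), and Tet1, an enzyme that oxidises 5-methylcytosine, from 1975, 2118 and 2219 to 911, 878 and 1249 (log2 -1.05 ± 0.159). In both genes no 24 h array reached the 12 h range, which the choice of the largest falls required.

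Among the other large falls were Fam25c (log2 -1.23), the germ cell gene Morc1 (-1.11), the ligand Pdgfc (-1.04) and the zinc-finger genes Zfp229 (-1.01) and Bnc2 (-0.99). They were followed by Mylpf (-0.97), a fast-muscle myosin light chain, the ubiquitin ligase gene Trim2 (-0.96), Gtsf1l (-0.95) and the mitochondrial carrier gene Slc25a12 (-0.95). Rpl39l (-0.95), a ribosomal protein paralog, and Mymx (-0.92), known for myoblast fusion, were the last of the 15. The Trim2 probe set can match other transcripts. In Tet1 2 of 4 probe sets were called, in Trim2 4 of 5 and in Slc25a12 1 of 3. The uninduced change of all 15 was also negative, from -0.42 for Neurod1 to -0.93 for Lgals3, and was called for all but Neurod1. None of the differences between the courses was called for these genes except that of Neurod1.

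The difference between the induced and the uninduced course was called for 15 genes (0.105%), 12 of them higher (0.0841%) and 3 lower (0.021%), with 1079 genes at an unadjusted p under 0.05. With the replicate number within each time as a block, since the 24 h arrays numbered 3 deviated together, the counts were 18 and 6. Among the 15 largest rises the difference was called for Aplnr (2.36 ± 0.273, adjusted p = 0.0002919), Igf2 (1.65 ± 0.2), Gfra2 (1.33 ± 0.178), Greb1l (1.28 ± 0.227), Pdgfra (1.26 ± 0.199), Cyp26a1 (1.17 ± 0.222, adjusted p = 0.0295) and Nuak1 (1.16 ± 0.167). The call of Cyp26a1 was lost with that block and without both 24 h arrays numbered 3, and those of Greb1l and Cdh11 were lost under several other settings. Pdgfra signal was 78.6, 70.1 and 64.5 at 12 h and 179, 201 and 248 at 24 h of induction, against 30.5, 57.1 and 34 and then 33.4, 33.5 and 47.1 without induction. The uninduced arrays of Pdgfra overlapped between times and the induced ones did not, the latter a condition of its choice as a large rise.

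Tal1, a basic helix-loop-helix factor of blood and endothelial precursors, went from 60.5, 50.2 and 53.4 to 126, 135 and 151 (log2 0.96 ± 0.116), and its uninduced arrays stayed between 60 and 76.8 (difference 1.01 ± 0.164, adjusted p = 0.006956). Cdh11, a mesenchymal cadherin, went from 235, 287 and 231 to 510, 520 and 616, and its uninduced arrays lay between 121 and 178 (difference 0.98 ± 0.182, adjusted p = 0.02535). Msx1, a homeobox target of Bmp signalling (difference 0.72 ± 0.142, adjusted p = 0.04758), and Hmga2, a chromatin protein of embryonic cells (0.93 ± 0.148, adjusted p = 0.005684), were also called. The Msx1 call was lost under 20 of 26 alternatives and the Hmga2 call with the mean of its probe sets. Prickle1, a planar polarity protein, was lower in the difference of courses (-0.77 ± 0.131, adjusted p = 0.01209). Its induced signal was 851, 815 and 857 at 12 h and 832, 894 and 834 at 24 h, while its uninduced signal went from 177, 179 and 162 to 344, 276 and 350. The induced arrays were thus already high at 12 h and overlapped between times, and no uninduced array reached them. This call was lost without both 24 h arrays numbered 3 and with the mean of its 3 probe sets. Serpinf2 was lower as well (-1.41 ± 0.249), but none of its signals was above 46.6, and 2 of the uninduced 12 h arrays were at 5.55 and 5.45.

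**Figure D3:**
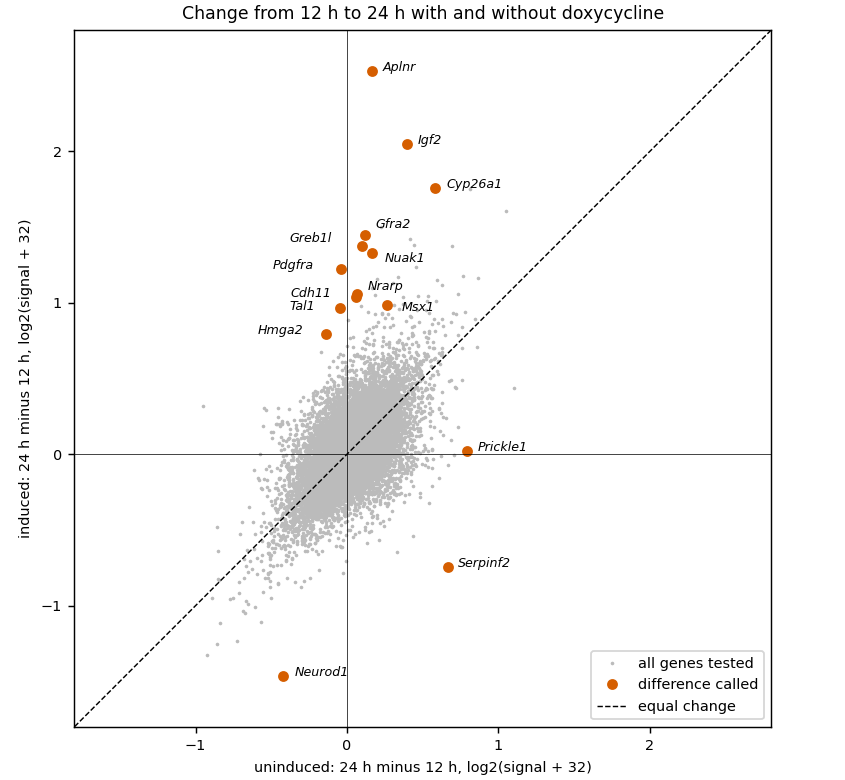
Change from 12 h to 24 h without induction (x) and with induction (y) for the 14273 genes tested (grey), both as differences of mean log2(signal + 32), with the dashed line at equal change. Orange points are the 15 genes whose difference between courses was called; 12 lie above the line and Neurod1, Serpinf2 and Prickle1 below it.

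Genes of the primitive streak rose in the largest share of any list, though the lists were chosen with earlier results of these data known. Of 20 measured members 15 rose and 1 fell, with a median change of 0.71 against 0.03 over all genes. Between 14 and 15 members were called higher when any 1 induced array was left out. The shares of all genes tested, 8.56% higher and 5.35% lower, are the reference for each list count. Besides Eomes, Mixl1, Sp5 and Fgf8, the LIM homeobox gene Lhx1 went from 109, 91.4 and 112 to 231, 261 and 326 (log2 1.16 ± 0.165), and the organizer gene Gsc from 21.6, 19.4 and 24.8 to 63.2, 79 and 90.2 (log2 1.01 ± 0.171). All 24 h arrays of both genes were above all 12 h arrays. Mesp1 (0.94), a factor of nascent mesoderm, Gata6 (0.85), Foxa2 (0.79), Evx1 (0.73), Nkx1-2 (0.68), Wnt8a (0.69), Nodal (0.65), Snai1 (0.53) and Wnt3 (0.52) also rose. Fgf4, a ligand of pluripotent cells, was the member that fell (-0.73). Wnt3a (-0.08), Cdx2 (0.12), Tdgf1 (0.13) and Lefty2 (-0.07) were not called. In uninduced cultures 4 members rose and 2 fell, with a median of 0.24, and the difference between courses was called for none of them; Mixl1 came nearest among those named (1.28 ± 0.266, adjusted p = 0.06485).

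Presomitic and segmenting mesoderm genes split. Of 28 measured members 12 rose and 3 fell (median 0.36), compared with 2 and 0 in uninduced cultures, and the difference between courses was called for Aplnr, Cyp26a1 and Nrarp. The risers included Aplnr, Cyp26a1, Tnfrsf19 and Nrarp, together with Rspo3 (log2 1.00 ± 0.12), a secreted amplifier of Wnt signalling whose signal went from 31.9, 33.9 and 45.9 to 96.2, 103 and 118, and Greb1 (0.91 ± 0.136). Rspo3 had 1 of 2 probe sets called. Dact1 (0.47), Zic2 (0.48), Foxc1 (0.46) and Tbx6 (0.38), the T-box factor of this tissue, rose less. The members that fell were Dll1, Epha4 and Sall1 (-0.35). Lfng (0.09), Hes7 (-0.13), Mesp2 (0.25), Wnt5a (0.18) and Pcdh8 (0.39) were not called. Of 9 measured somite genes, Twist1 rose (0.41 ± 0.117) and Tcf15 fell (-0.38 ± 0.0848). The Twist1 call was lost when any 1 of 4 arrays was left out.

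The few Notch pathway members that were called went in both directions. Of 33 measured, 5 rose (15.2%) and 3 fell (9.09%), against 8.56% and 5.35% of all genes tested, and 25 were not called (median 0.06). With 1 array left out 3 to 4 were called higher and 1 to 3 lower. The fewest came without the induced 12 h replicate 2 and the induced 24 h replicate 1, respectively. The list as a whole was not tested. Dll1, a ligand, had signals of 326, 292 and 337 at 12 h and of 197, 166 and 187 at 24 h (log2 -0.70 ± 0.128, adjusted p = 0.0008089), with uninduced arrays between 77.7 and 100.1. Its induced arrays were therefore above the uninduced ones at both times and lower at 24 h. Dll3, a ligand-like protein that acts within the cell, went the other way, from 487, 517 and 466 to 637, 737 and 678 (log2 0.46 ± 0.0807, adjusted p = 0.0006579), with uninduced arrays between 115 and 136. Nrarp, a feedback inhibitor transcribed in response to Notch, went from 62.1, 84.3 and 66.4 to 171, 203 and 173 (log2 1.06 ± 0.105), and its difference from the uninduced course was called (1.00 ± 0.148, adjusted p = 0.003082). At 12 h its induced arrays overlapped uninduced arrays of 53.2, 64.1 and 70.2, and at 24 h they did not. One of its 2 probe sets was called. The receptor Notch3 (0.54 ± 0.0992) and the target Hes1 (0.52 ± 0.13) rose too, and the Hes1 call was lost without the induced 12 h replicate 2 or the induced 24 h replicate 1. Rbpj (-0.31), the DNA-binding partner of Notch, fell, as did Numbl (-0.43), whose call was lost in 5 of the fits with 1 array left out.

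**Figure D4:**
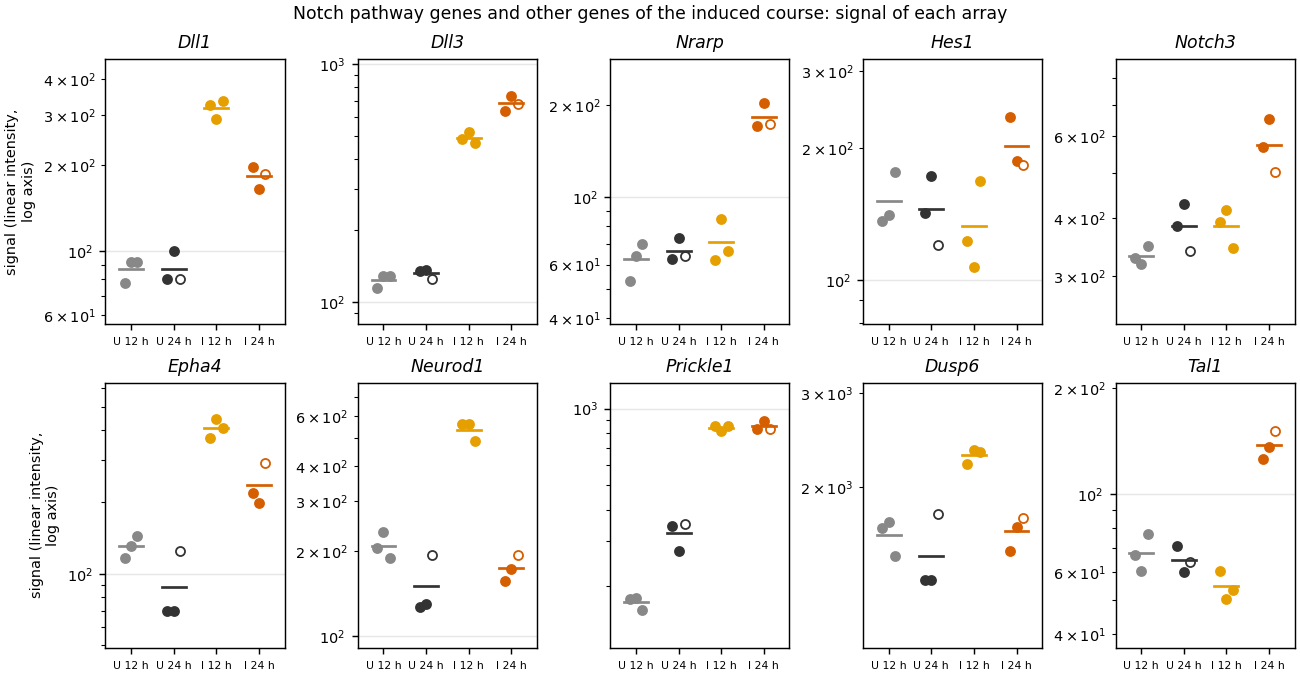
Linear signal on a log axis of each array for 5 Notch pathway genes (top row) and for Epha4, Neurod1, Prickle1, Dusp6 and Tal1 (bottom row); U is uninduced, I is induced, bars are group means, and open circles are the 24 h arrays numbered 3. Dll1, Epha4, Neurod1 and Dusp6 are lower at 24 h than at 12 h of induction, Dll3, Nrarp, Hes1, Notch3 and Tal1 are higher, and the Prickle1 arrays overlap.

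Several genes that were higher in induced than in uninduced arrays at 12 h had lower signal at 24 h. Epha4, a guidance receptor, went from 373, 444 and 408 to 218, 198 and 292 (log2 -0.73 ± 0.154, adjusted p = 0.002893), with uninduced arrays of 116, 131 and 144 and then of 70.1, 69.6 and 124. Only 2 of its 5 probe sets were called. Dusp6, a phosphatase that is a feedback target of Fgf signalling, went from 2216, 2348 and 2330 to 1519, 1690 and 1757 (log2 -0.47 ± 0.107). In Dusp6 the induced arrays lay above all uninduced arrays at 12 h and among them at 24 h. Id2, an inhibitor of basic helix-loop-helix factors, went from 918, 1153 and 1060 to 705, 819 and 733 (log2 -0.45 ± 0.108), and its call was lost with the mean of its probe sets. The tight junction gene Cldn4 went from 608, 598 and 637 to 458, 406 and 378 (log2 -0.54 ± 0.107). No 24 h array of these genes reached the 12 h range. They were picked after their values were seen.

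Wnt pathway genes rose in both lists. Of 34 ligands, receptors and secretion factors 10 rose and 1 fell (median 0.18), and of 29 antagonists and targets 11 rose and none fell (median 0.23); in uninduced cultures the rises were 2 and 3, and the difference between courses was called for no gene of either list. The secretion factor Wls went from 127, 100 and 110 to 193, 240 and 249 (log2 0.85 ± 0.135), and all 3 of its probe sets were called. The receptors Fzd10 (0.63 ± 0.106) and Fzd2 (0.57 ± 0.0931) and the ligands Wnt8a (0.69 ± 0.133), Wnt3 (0.52) and Wnt11 (0.49) rose, the calls of Wnt3 and Wnt11 being lost without some single arrays. Lgr4, a receptor for R-spondins, fell (-0.32). Among targets and antagonists Sp8, a zinc-finger factor related to Sp5, went from 23.4, 14 and 31.8 to 72.4, 85.1 and 98.3 (log2 1.10 ± 0.135). The secreted inhibitor Dkk1 went from 40, 45.6 and 48.8 to 73.4, 99.1 and 139 (log2 0.80 ± 0.133) and also rose in uninduced cultures (0.54). Groups did not overlap in either gene. Axin1 (0.74), Frzb (0.74), Axin2 (0.60), Nkd1 (0.47), Nkd2 (0.45) and Ccnd2 (0.43) rose, whereas Notum (-0.28), Lef1 (0.23) and Ctnnb1 (-0.02) were not called. Of 19 planar polarity genes 4 rose and none fell, and 2 to 4 rose with 1 array left out; Ror2 (0.45) and Ptk7 (0.40) were among them, and the Ror2 call was lost with the mean of its probe sets.

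In the Fgf pathway 4 of 29 measured genes rose (13.8%) and 3 fell (10.3%), against 8.56% and 5.35% of all genes tested (median 0.05). Fgf8 and Fgf10 rose and Fgf4, Dusp6 and the feedback inhibitor Spry4 (-0.36) fell. Fgf8 signal was 81.7, 76.7 and 87 at 12 h and 176, 232 and 279 at 24 h (log2 1.18 ± 0.156), and it rose in uninduced cultures also (0.76, adjusted p = 0.00731). Fgf10 went from 16.9, 29.8 and 17.7 to 50.8, 53.5 and 52.1 (log2 0.66 ± 0.131), with uninduced arrays at or below 20.8. Etv4 (-0.14), Etv5 (0.23) and Fgfr1 (0.19) were not called. Leaving out the induced 12 h replicate 2 brought the Fgf pathway rises to 2.

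Of 26 measured Nodal and Tgfb pathway genes 4 rose (15.4%) and 1 fell (3.85%), against 8.56% and 5.35% of all genes tested (median 0.09). Nodal went from 587, 524 and 641 to 847, 982 and 979 (log2 0.65 ± 0.112) and also rose in uninduced cultures (0.63, adjusted p = 0.00325; difference 0.03 ± 0.158). The receptor gene Acvr1b also rose (0.50), and Skil, a repressor of Smad signalling, fell (-0.45), with calls lost under some settings. Smad3 rose (0.36) with 1 of its 3 probe sets called higher and 1 called lower, and the mean of its probe sets gave -0.02. Of 25 Bmp pathway genes 6 rose and 2 fell (median 0.20), with 4 rising without the induced 24 h replicate 2 or 3, and 1 falling without the induced 12 h replicate 1 or 3 or the induced 24 h replicate 1 or 2. The inhibitory Smad6 went from 40.4, 31.6 and 45.2 to 92.6, 111 and 113 (log2 0.96 ± 0.123), and Smad1 (0.77 ± 0.111), Smad5 (0.42) and the target Id3 (0.60 ± 0.0986) rose, while Id2 and Id4 (-0.44) fell. Msx1 went from 103, 83.6 and 99.8 to 196, 224 and 240 (log2 0.98 ± 0.101), and its probe set can match other transcripts. Neither Msx1 nor Smad6 had overlapping groups.

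Retinoic acid genes were led by Cyp26a1; of 16 measured, 3 rose and none fell (median 0.18). The nuclear receptor Rxrb rose in induced (0.62 ± 0.11) and uninduced cultures (0.55), and Rxrg rose (0.41 ± 0.126) with a call lost in several fits. Aldh1a2 (0.20), the enzyme that makes retinoic acid in mesoderm, and Crabp1 (0.23) were not called. Among anterior Hox genes, which pattern the head-to-tail axis, 2 of 7 rose and none fell (median 0.34). Hoxb1 went from 19.2, 20.2 and 17.1 to 38.8, 53.2 and 46.3 (log2 0.62 ± 0.122, adjusted p = 0.001708), and Hoxb2 from 27.6, 22.6 and 42.9 to 68, 88.5 and 60.3 (log2 0.73 ± 0.17, adjusted p = 0.005996). Their uninduced arrays were at or below 31.3 at both times, and the induced 24 h arrays were all above that. The neighbours Hoxb3 (0.37, adjusted p = 0.05173) and Hoxb4 (0.34, adjusted p = 0.08839) were not called. Of 11 central and posterior Hox genes Hoxa7, Hoxb6 and Hoxd9 were below the filter signal of 13.3 at both induced times, as was Hoxc4 of the anterior list, so no change could be read for them. None of the others was called either, and Hoxc8 (-0.30 ± 0.111) and Hoxd13 (-0.28 ± 0.138) had the smallest p-values.

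Genes of blood and endothelial progenitors rose in 6 of 22 cases and fell in none (median 0.24). None was called in uninduced cultures, and the difference between courses was called for Tal1 alone; it was 0.94 ± 0.195 for Fli1 (adjusted p = 0.06485) and 0.83 ± 0.207 for Kdr (adjusted p = 0.1622). Fli1 went from 29.8, 22.4 and 26.3 to 106, 129 and 124 (log2 1.38 ± 0.138), and Kdr, the Vegf receptor of mesodermal progenitors, from 53.7, 31.3 and 36 to 112, 133 and 144 (log2 1.17 ± 0.146). Uninduced arrays at 24 h were 39.2, 25.7 and 28.1 for Fli1 and 37.8, 40.5 and 38.1 for Kdr, below all induced 24 h arrays. Sox7 (0.72 ± 0.12), Hhex (0.59 ± 0.122) and Flt1 (0.57 ± 0.141) rose, and the Flt1 call was lost without the induced 12 h replicate 3. Etv2 (0.25), Gata1 (0.07), Runx1 (0.09), Lmo2 (0.21) and Pecam1 (-0.15) were not called. Of 22 lateral and cardiac genes Msx1, Gata4 (0.65 ± 0.122), the cardiac actin gene Actc1 (0.62 ± 0.113) and Irx3 (0.35) rose and none fell, while Nkx2-5 (0.12), Tbx5 (0.41) and Hand1 (0.13) were not called. Actc1 signal was 76.9, 81.4 and 97.4 at 12 h and 133, 181 and 132 at 24 h, with uninduced arrays at or below 71.1.

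Of 17 definitive endoderm and node genes Cxcr4, Nodal and Cldn6 rose; Nodal and Cldn6 also rose in uninduced cultures, as did Trh (0.43). The chemokine receptor Cxcr4 went from 30.5, 24.5 and 24.9 to 78, 92.2 and 123 (log2 1.13 ± 0.125), and its difference from the uninduced course was not called (0.83 ± 0.177, adjusted p = 0.06833). Sox17 (0.34) and Cer1 (0.29) were not called. Of 17 extraembryonic endoderm genes Pdgfra and the collagen genes Col4a1 (0.92 ± 0.11) and Col4a2 (0.77 ± 0.13) rose, all of which mesoderm can also express, and Rhox5 fell (-0.45). The endoderm markers Gata4 (0.65) and Gata6 (0.85), counted in other lists, rose as well. Of the other endoderm markers Sox17 and Amn (0.26) were not called, and Ttr, Afp, Apoa1 and Cubn were below the filter signal. Which cells these rises came from was not tested. Of 15 trophoblast genes Eomes alone rose, a gene it shares with the streak list. Among 19 neural genes Ncam1, Irx3 and Sox11 (0.45 ± 0.0935) rose (15.8%) and Neurod1 and Sox2 fell (10.5%), against 8.56% and 5.35% of all genes. Without the induced 24 h replicate 2 only 1 neural gene rose.

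Genes of the mesenchymal transition rose in 8 of 23 cases and fell in 1 (median 0.19). Cdh2 went from 466, 466 and 450 to 616, 732 and 865 (log2 0.63 ± 0.113), and Snai1, a repressor of epithelial genes, from 32, 28.5 and 21.9 to 45.2, 56.3 and 59.3 (log2 0.53 ± 0.126). Col5a2 (0.42), Mmp2 (0.33) and Twist1 rose, and Vim (0.01), Zeb2 (0.26) and Fn1 (0.07) were not called. In the epithelial list the counts depended on single arrays: 7 of 33 fell and 2 rose (median 0.03), 1 to 4 fell with any 1 induced array left out, the fewest without the induced 12 h replicate 2 or the induced 24 h replicate 1 or 2, and without both 24 h arrays numbered 3, 4 fell and 6 rose. Cdh1, the epithelial cadherin, fell (-0.32), as did Cldn4, and Cldn7 went up from 574, 555 and 556 to 993, 909 and 803 (log2 0.65 ± 0.117) and also rose in uninduced cultures (0.52).

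Basement membrane and matrix genes rose in 10 of 34 cases and fell in 1 (median 0.16). Col4a1 went from 185, 171 and 180 to 315, 361 and 434, and Serpinh1, the collagen chaperone, from 204, 178 and 169 to 315, 353 and 306 (log2 0.73 ± 0.0874). Gpc3 (0.90 ± 0.144), Fbn2 (0.57) and the hyaluronan synthase gene Has2 (0.54) rose, and Nid2 fell (-0.35). Both collagen IV genes had no overlap between times, and their uninduced changes were 0.23 and 0.02. Of 12 integrins Itgb5 (0.66 ± 0.116) and Itga8 (0.55 ± 0.153) rose (16.7%, against 8.56% of all genes). The Itga8 call was lost without both 24 h arrays numbered 3. Of 16 Eph receptors and ephrins 5 rose and 2 fell, and 3 to 5 rose with 1 array left out; Epha1 went from 256, 258 and 250 to 449, 501 and 504 (log2 0.85 ± 0.119).

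Genes of the naive stem cell state fell. Of 24 measured, 11 fell and 1 rose (median -0.30), with 7 to 10 falling when 1 induced array was left out, the fewest without the induced 24 h replicate 2. Zfp42, a zinc-finger marker of this state, went from 2342, 2531 and 2463 to 1392, 1255 and 1618 (log2 -0.78 ± 0.0974), and the lysosomal mannosidase gene Manba from 507, 569 and 534 to 281, 258 and 274 (log2 -0.91 ± 0.11). Fgf4 went from 794, 908 and 902 to 555, 505 and 469 (log2 -0.73 ± 0.0944). In these genes the 24 h arrays were all below the 12 h arrays. Nr5a2 (-0.57), Klf5 (-0.48), Tet2 (-0.46) and Gbx2 (-0.39) fell, Nanog rose (0.35), and Klf4 (-0.20), Esrrb (-0.26) and Prdm14 (-0.31) were not called. In uninduced cultures 7 of the list fell (median -0.26), and the difference between courses was called for none.

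Core and primed pluripotency genes went both ways, with 5 of 29 rising and 8 falling (median 0.03). Pou5f1 (0.03) and Sall4 (0.05) were not called. Sox2, a factor that pluripotent and neural cells share, went from 4326, 5076 and 5088 to 3134, 3102 and 3351 (log2 -0.59 ± 0.075, adjusted p = 2.215e-05), and its uninduced change was -0.21 (adjusted p = 0.1139; difference -0.37 ± 0.106, adjusted p = 0.2734). Dppa2 (-0.88 ± 0.154) and Dppa4 (-0.62 ± 0.0844), nuclear proteins of pluripotent cells, fell, and the kinase gene Pim2 rose (0.67 ± 0.123). The Dppa2 probe set can match other transcripts. Among 16 measured genes related to DNA methylation (the list labelled DNA methylation enzymes) 5 fell and none rose (median -0.18). They were Tet1, Tet2, Gadd45a (-0.31), Dnmt3a (-0.29) and Trim28 (-0.16), and 2 to 5 of the list fell with 1 array left out. The call of Trim28 was lost in every one of those fits, that of Dnmt3a in 5 and that of Gadd45a in 3. Under 15 of 19 alternatives Trim28 was not called. With the mean of its probe sets Dnmt3a had an adjusted p of 0.6663. Tet2 went from 177, 168 and 160 to 106, 120 and 117. Of 21 germline genes 6 fell and none rose, with 2 to 6 falling when 1 array was left out; Tdrd12 went from 313, 319 and 285 to 197, 169 and 161 (log2 -0.70 ± 0.106) and also fell in uninduced cultures (-0.57).

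Sterol and fatty acid synthesis genes rose in 13 of 24 cases and fell in none (median 0.27), and 10 to 11 rose with 1 array left out. Mvk, mevalonate kinase, went from 120, 103 and 108 to 201, 169 and 159 (log2 0.55 ± 0.0973), and Msmo1, a sterol oxidase, from 818, 859 and 844 to 1186, 1132 and 1213 (log2 0.47 ± 0.0665, adjusted p = 6.55e-05). Neither gene had overlapping groups. Tm7sf2 (0.56), Lss (0.54), Ebp (0.40) and Cyp51 (0.39) rose by similar amounts, and Hmgcs1 (0.21), Sqle (0.19), Srebf2 (0.15) and Fasn (0.09) were not called. In uninduced cultures 4 members rose (median 0.20), and no difference between courses was called.

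**Figure D5:**
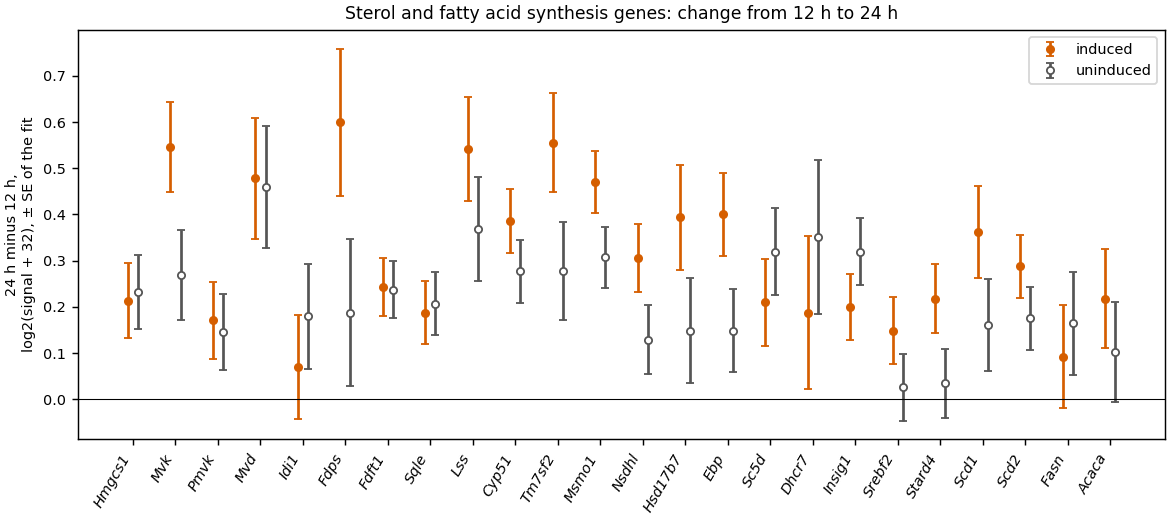
Change from 12 h to 24 h, as the difference of mean log2(signal + 32) with the standard error of the fit, for 24 sterol and fatty acid synthesis genes in induced (filled) and uninduced (open) cultures. All induced values are above 0, and 13 of them were called.

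Growth and imprinted genes rose in 10 of 37 cases and fell in 3 (median 0.10). Igf2 and Igfbp4 led. Igfbp4 signal went from 286, 296 and 307 to 669, 743 and 817. Hmga2 went from 397, 340 and 406 to 593, 685 and 780 (log2 0.79 ± 0.104) with uninduced arrays between 318 and 396, and its probe set can match other transcripts. Induced arrays of both genes were all higher at 24 h. Ndn (0.65), Sgce (0.72), Gnas (0.49), Igf1r (0.46) and Grb10 (0.44) rose, and the growth inhibitor Cdkn1c (-0.40), Mest (-0.37) and Mycn (-0.26) fell, of which 1 was left without the induced 24 h replicate 1.

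Calls in the proliferation and stress lists can be read against the 8.56% of all genes that rose and the 5.35% that fell. Of 29 S phase genes 1 rose and 4 fell; Pola1, a replicative polymerase subunit, went from 741, 807 and 750 to 554, 540 and 604 (log2 -0.42 ± 0.0867). Of 27 G2 and M phase genes 4 rose and 1 fell, with 2 to 5 rising when 1 array was left out (fewest without the induced 12 h replicate 3 or the induced 24 h replicate 2), and Plk1 (0.35 ± 0.0738) and Nek2 (0.62 ± 0.13) were among the risers. Of 21 p53 targets 2 rose, Cdkn1a (0.43) among them, and 3 fell, including Ccng1 (-0.39 ± 0.0873); without the induced 12 h replicate 3 or the induced 24 h replicate 2 only 1 fell. Heat shock and unfolded protein genes fell in 6 of 26 cases and rose in 2, of which none was called without the induced 24 h replicate 2; Hspa1b, an inducible chaperone, went from 226, 227 and 220 to 107, 112 and 122 (log2 -0.82 ± 0.156), with 1 of 3 probe sets called. Of 29 glycolysis and hypoxia genes Pfkl (0.74 ± 0.157), Pkm (0.39 ± 0.0733) and Aldoc (0.71) rose, and 2 to 6 rose with 1 array left out. Of 23 interferon and antigen-processing genes H2-K1 (0.61 ± 0.094) and Bst2 (0.48) rose and Ifitm3 (-0.49 ± 0.0723) and Ifitm1 (-0.32) fell. Of 20 feeder fibroblast genes Tagln rose (0.48) and Ccl2 (-0.48) and S100a4 (-0.47) fell. Of 19 alternatives, the call of Aldoc was lost under 13, S100a4 under 5, Ccl2 under 4, Ifitm1 and Tagln under 2 each and Cdkn1a under 1.

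Without both 24 h arrays numbered 3 the members called higher became 4 for the Bmp, S phase, Eph and ephrin, glycolysis and interferon lists, 6 for the epithelial, core pluripotency and G2 and M phase lists, and 5 for the Fgf list. They became 2 for the neural, retinoic acid and feeder fibroblast lists, 3 for p53 targets, 9 for the matrix list, 12 for sterol synthesis and 1 for the heat shock list. Members called lower became 13 for the naive list, 8 for the heat shock list, 6 for S phase, 5 for germline genes, 4 for the Fgf, epithelial and p53 lists and 3 for G2 and M phase. They became 2 for the extraembryonic endoderm and matrix lists, 1 for the trophoblast and feeder fibroblast lists and 0 for the mesenchymal list. The other list counts were the same.

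Some small list counts changed when any of several induced arrays was left out. The single falls in the Wnt ligand and receptor list (Lgr4) and in the Nodal and Tgfb list (Skil) were not called without the 12 h replicate 1 or 3 or the 24 h replicate 1 or 2. The fall in the mesenchymal list (S100a4) was not called without the 12 h replicate 1 or 2 or the 24 h replicate 2 or 3, and that in the G2 and M phase list (Cenpe) without the 12 h replicate 1 or 2 or the 24 h replicate 1. Neither feeder fibroblast fall was called without the 12 h replicate 1 or the 24 h replicate 2, and Tagln was not called without the 12 h replicate 3 or the 24 h replicate 2. Eph and ephrin falls went to 1 without the 12 h replicate 1 or 2 or the 24 h replicate 1 or 2. Without the 24 h replicate 2 Mcm6, the S phase gene that rose, was not called and 1 interferon gene fell, and without the 12 h replicate 3 or the 24 h replicate 3 the Itga8 rise was lost.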

How the data were processed

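RNA was hybridised to 18 single-channel expression arrays in 6 groups of 3, grouped by title; per the labels' protocols, 100 ng of total RNA with an integrity number above 9 was labelled per sample. The deposited values are signal intensity on a linear scale for 45101 probe sets, from 0.0187 to 16866. GCOS made them, per the submitters' processing notes; its signal algorithm is not given in the sources used here. Their 2% trimmed mean was 150 on every array, so no further normalization was added. The number of arrays limits the precision.

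Values were taken as log2(signal + 32), so that folds of dim genes are understated. Leaving out 64 control probe sets, 34945 had 1 gene (34741 by Entrez identifier), 932 several and 9160 none. A probe set was kept if a group mean reached 13.3, the 40th percentile. The probe set with the highest mean of the 25881 kept with 1 gene stood for its gene (14273 genes, 6674 with several). limma 3.58.1 in R 4.3.3 fitted 1 mean per group over 18 arrays (12 residual degrees of freedom), with an intensity trend and Benjamini-Hochberg adjustment over all genes. Named genes were Msgn1, Hprt, the 15 largest rises and falls among called genes whose times did not overlap, up to 10 per direction for the difference of courses and up to 6 called members per list, without clone names; further list members are given with their change alone, and those said to be picked later fall outside this rule. The members and the 37 lists (852 genes, 735 measured; the others are not analysed here) were chosen with earlier results of these data known.

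Replicate numbers did not pair induced 12 h with induced 24 h arrays (correlations of deviations -0.038, 0.047 and 0.0013). Between induced and uninduced arrays they did at 24 h (0.2, 0.14 and 0.44) and not at 12 h (0.01, 0.072 and -0.067). The fit was tested on simulated data (14273 genes) with independent noise on each array, in which 100 genes changed by 0.5 and 100 by 1. For the induced course 62% and 96% of these were recovered, and 26% and 77% for the difference of courses. Among the unchanged genes 6 and 3 were called. The simulation had fewer changed genes than the data and no shared deviation of the 24 h arrays numbered 3, so its rates may not hold for the data. Promoters were searched and figures drawn with Python 3.11.15 and matplotlib 3.10.9.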

Additional observations from a re-analysis of the deposited data

Results flagged for a closer look

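The change from 12 h to 24 h differed between induced and uninduced cultures, by limma's test of the difference itself (Benjamini-Hochberg adjusted over 14273 genes), for 15 genes. It was higher in induced cultures for Aplnr (2.363, adjusted p = 0.0002919), Igf2 (1.651, adjusted p = 0.0003114), Gfra2 (1.331, adjusted p = 0.001081) and Greb1l (1.28, adjusted p = 0.01577). The same held for Pdgfra (1.261, adjusted p = 0.005684), Cyp26a1 (1.174, adjusted p = 0.0295), Nuak1 (1.164, adjusted p = 0.002241), Tal1 (1.008, adjusted p = 0.006956), Nrarp (0.9961, adjusted p = 0.003082) and Cdh11 (0.9819, adjusted p = 0.02535), and for Hmga2 (0.9323, adjusted p = 0.005684) and Msx1 (0.7212, adjusted p = 0.04758). It was lower for Prickle1 (-0.771, adjusted p = 0.01209), Neurod1 (-1.047, adjusted p = 0.01531) and Serpinf2 (-1.411, adjusted p = 0.01577). In these genes other than Prickle1 every induced 24 h array lay beyond every induced 12 h array. For those also among the 15 largest rises and falls this was a condition of choice.

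Aplnr, Igf2 and Nuak1 were called under each of the 26 alternatives. Gfra2, Nrarp and Hmga2 lost their calls with averaged probe sets, and Pdgfra and Tal1 with a replicate block on the arrays of the comparison alone, where the highest adjusted p-values were 0.09231 and 0.06143. Msx1 lost its call under 20 alternatives (highest adjusted p 0.3639), Cyp26a1 under 18 alternatives (highest adjusted p 0.3422), Cdh11 under 14 (0.1122), Greb1l under 9 (0.2832), Serpinf2 under 6 (0.09231), Neurod1 under 5 (0.1378) and Prickle1 under 3 (0.3039).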

How the results depend on the processing

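The settings tried were quantile normalization, other filters and offsets, the mean of probe sets, single probe sets, other variance models, the arrays of a comparison alone, replicate blocks and leaving out arrays; the pair of 24 h arrays numbered 3 and the block within each time were added after seeing the data. All 30 largest rises and falls were called under each alternative that applies to the induced course (at most 19), as were 113 of the 166 named genes called in the induced course. Smad3 reversed to -0.01806 with the mean of probe sets. Of 1406 list counts compared 1250 stayed within 1.5 times. Quantile normalization moved the share of higher among induced calls from 61.5% to 54.8%. With 1 array left out, the induced course had 688 to 1259 genes higher and 437 to 851 lower, the uninduced course 100 to 474 and 89 to 440, and the difference 8 to 23 and 1 to 5.

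With a replicate block the induced course gave 1060 higher and 639 lower (all arrays) or 1003 and 617 (arrays of the comparison alone), and the uninduced course 197 and 169 or 21 and 22. On the difference, the block on the arrays of the comparison alone gave 7 and 0 genes (385 lower at an unadjusted p under 0.05 in limma, the one tool run), and the block within each time gave 18 and 6. The uninduced course gave 87 and 85 on its arrays alone and 661 and 593 without both 24 h arrays numbered 3. The difference gave 7 higher with the mean of probe sets. The causes were not tested. Dim genes, near the signal filter, have the least certain changes.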
